A study of Homo sapiens with 12 samples.

Results

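The response of DU145 cells to 24 h of RSL3 was described here across the 1810 genes of the deposited DMSO and RSL3 table, out of 3234 rows in both tables of the series, and in 6 of its 12 libraries. DU145 is an established human prostate cancer cell line, of WT genotype in the labels, and the groups were DU145_DMSO, given the solvent, and DU145_RSL3, each with 3 libraries. RSL3 is a covalent inhibitor of GPX4, and its dose is not given in the sources used here. The members are all rows of the table, which holds only genes that the authors called changed in this same contrast, so counts of genes that pass a test describe the list and are no independent evidence of a response. Rows carry a position and a strand, and 1795 of the 1810 received a symbol by matching these to RefSeq and GENCODE genes of GRCh38. The study used the comparison to look for regulators of ferroptosis. Nothing in the labels says that the replicates were separate cultures, so p-values measure only the spread between these libraries, which may be technical.

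Ferroptosis is a form of cell death driven by iron-dependent peroxidation of membrane lipids. GPX4 reduces these lipid peroxides with glutathione, whose cysteine is imported as cystine, and ferritin keeps iron out of the reaction. NRF2 is the transcription factor of the antioxidant response and switches on haem oxygenase, ferritin and detoxifying reductases, while ATF4 switches on amino acid uptake and synthesis under stress. Interferon-stimulated genes carry an interferon-stimulated response element near their start, and chemokine genes carry sites for NF-kB, the transcription factor of inflammatory signalling.

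Promoters are shown for the interferon-stimulated and NF-kB genes because these lists were almost all lower and many of their promoters held the element named for their factor. RefSeq promoter windows of 300 bases (GRCh38.p14, 250 before to 50 after the gene start) were found for 1357 of the 1810 rows and searched on both strands. The core of the interferon-stimulated response element, GAAA, any 2 bases and GAAA, stood in 13 of the 16 promoters found for interferon-stimulated genes (81.2%), in 5.60% of the promoters of lower genes, in 1.82% of those of higher genes and in 3.65% of all 27305 promoters. The lower genes with a match, 36 of 643 promoters, include these 13, so their share is not separate from that of the list. Windows around the first match are printed 5′ to 3′ on the strand of the gene, with matches in capitals. A match on the other strand reads TTTC, any 2 bases and TTTC.
OAS3, chr12:112938311-112938360, plus strand: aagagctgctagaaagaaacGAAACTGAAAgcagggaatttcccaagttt
IFIT3, chr10:89327821-89327904, plus strand: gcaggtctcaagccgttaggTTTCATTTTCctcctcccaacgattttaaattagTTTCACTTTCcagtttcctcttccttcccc
IFIT1, chr10:89392487-89392549, plus strand: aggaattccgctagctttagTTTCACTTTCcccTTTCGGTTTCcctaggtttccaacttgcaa
IFITM3, chr11:320866-320932, minus strand: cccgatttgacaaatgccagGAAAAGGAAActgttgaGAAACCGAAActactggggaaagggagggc
IFI27, chr14:94110608-94110670, plus strand: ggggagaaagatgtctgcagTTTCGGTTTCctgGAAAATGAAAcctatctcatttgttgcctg
ISG15, chr1:1013364-1013419, plus strand: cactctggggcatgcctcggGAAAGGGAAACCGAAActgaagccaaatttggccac

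The NF-kB letters, GGGA, any 2 bases and TTCC, stood in 9 of the 15 promoters of NF-kB target and cytokine genes (60.0%), against 1.63% of all promoters, 3.89% of those of lower genes and 1.40% of those of higher genes. The lower genes with a match, 25 of 643 promoters, include these 9, so here too the share is not separate from that of the list. In the CXCL promoters printed here the run GGGAATTTCCC holds 2 overlapping matches, 1 on each strand. In the window of TNFAIP3 the match is on the other strand and reads GGAA, any 2 bases and TCCC.
CXCL5, chr4:73998738-73998788, minus strand: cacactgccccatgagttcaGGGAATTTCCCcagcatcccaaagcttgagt
CXCL6, chr4:73836568-73836618, plus strand: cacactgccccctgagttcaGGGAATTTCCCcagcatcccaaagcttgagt
CXCL1, chr4:73869294-73869344, plus strand: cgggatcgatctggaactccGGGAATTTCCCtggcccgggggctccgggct
CXCL2, chr4:74099243-74099293, minus strand: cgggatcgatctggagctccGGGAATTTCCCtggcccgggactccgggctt
TNFAIP3, chr6:137867172-137867221, plus strand: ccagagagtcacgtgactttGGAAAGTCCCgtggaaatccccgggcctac
IL6, chr7:22727107-22727156, plus strand: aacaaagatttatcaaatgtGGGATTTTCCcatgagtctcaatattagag
The other elements were searched in the same way. TGACNNNGC, the core of the antioxidant response element, stood in 1 of 11 promoters of NRF2 targets (9.09%, against 13.6% of all promoters), and TGATGNAA, the core of the element bound by ATF4 with C/EBP, in 2 of 11 promoters of the amino acid response (18.2%, against 3.67%). ACGTGC, a hypoxia response element, stood in 4 of 10 hypoxia and glycolysis promoters (40.0%, against 6.87%). A match is a run of letters and not a measured binding site.

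Values are normalised reads, that is reads per gene divided by a size factor per library. The reads over listed genes ran from 2523743 to 3096832 per library, which is not the depth of the libraries, since only listed genes are held. Replicate 1 stood apart in both groups. By chi-square per degree of freedom, replicates 2 and 3 differed by 1.64 in DMSO and 1.81 in RSL3, against 1 from counting alone, while replicate 1 differed from them by 108 to 115 in DMSO and by 265 to 267 in RSL3. In replicate 1 of both groups genes rich in G and C read higher, with a rank correlation of a gene's deviation with its GC content of 0.52 in DMSO and 0.59 in RSL3, against -0.45 to -0.57 in the other libraries. Of 5 epithelial line markers EPCAM and CDH1 were in the table, and no marker of luminal or basal prostate, fibroblasts, endothelium or erythroid cells was. SYP, a neuroendocrine marker, and CD68, a macrophage marker, were in the table. Markers absent from it were not called changed, and their level is not known.

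Across the table, 958 genes were higher with RSL3 (52.9%) and 852 were lower (47.1%). The groups did not overlap for 1563 genes (86.4%). In limma's test on log2(normalised reads + 1), with Benjamini-Hochberg adjustment over 1720 genes with enough reads, 1406 passed at 0.05 (81.7%), of which 746 were higher (43.4%) and 660 lower (38.4%). "Rose" and "fell" below mean that a gene passed this test. Counts of list members that passed are to be read against the 81.7% of all tested genes. The count of calls changed with how the libraries were used, and the cause was not tested. Averaging or leaving out libraries also leaves fewer of them to measure the spread. With these averaged as 1 sample in each group 3 genes passed (0.174%), namely ATOH8, CBLC and AKR1C1, and 515 had an unadjusted p under 0.05. Without DMSO replicate 2 or 3, 6 or 8 genes passed, and without RSL3 replicate 2 or 3, 253 or 301, while edgeR on whole reads passed 1549 and DESeq2 1715. With a term for the replicate number, the replicate block, 1708 of the 1720 genes passed. A pass in that fit therefore does not set a gene or list apart. Other scalings, all computed over the listed genes alone, move genes down relative to the deposited one. The median shift on the log2 scale is 0.47 with totals, 0.29 with TMM and 0.31 with relative log expression. The higher share of the calls then falls from 53.1% to 24.6%, 30.4% and 29.3%. Factors taken only from genes called changed tend to balance those genes, so they cannot show which scale is right. Directions below are on the deposited scale and are compared with these scalings. With a trend on GC content and length removed from each library, 363 higher and 357 lower genes passed of 1638.

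Higher and lower genes differed in level, base composition and length. Higher genes had a median level of 758 normalised reads, a median GC content of 57.9% and a median transcript length of 2494 bases, and lower genes 105.6 reads, 47.9% and 4338 bases. A fold of at least 2 was seen in 317 higher genes (33.1%) and 522 lower genes (61.3%), and the median fold was 1.76 and 2.22. Long noncoding genes were split evenly, 80 higher and 72 lower, as were genes whose name marks them as antisense or divergent, 33 and 31. Strandedness of the libraries is not given, so reads of antisense pairs cannot be told apart. GC content also separates replicate 1 from replicates 2 and 3, and its part in the direction of genes was not tested beyond the fit with the trend removed.

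**Figure D1:**
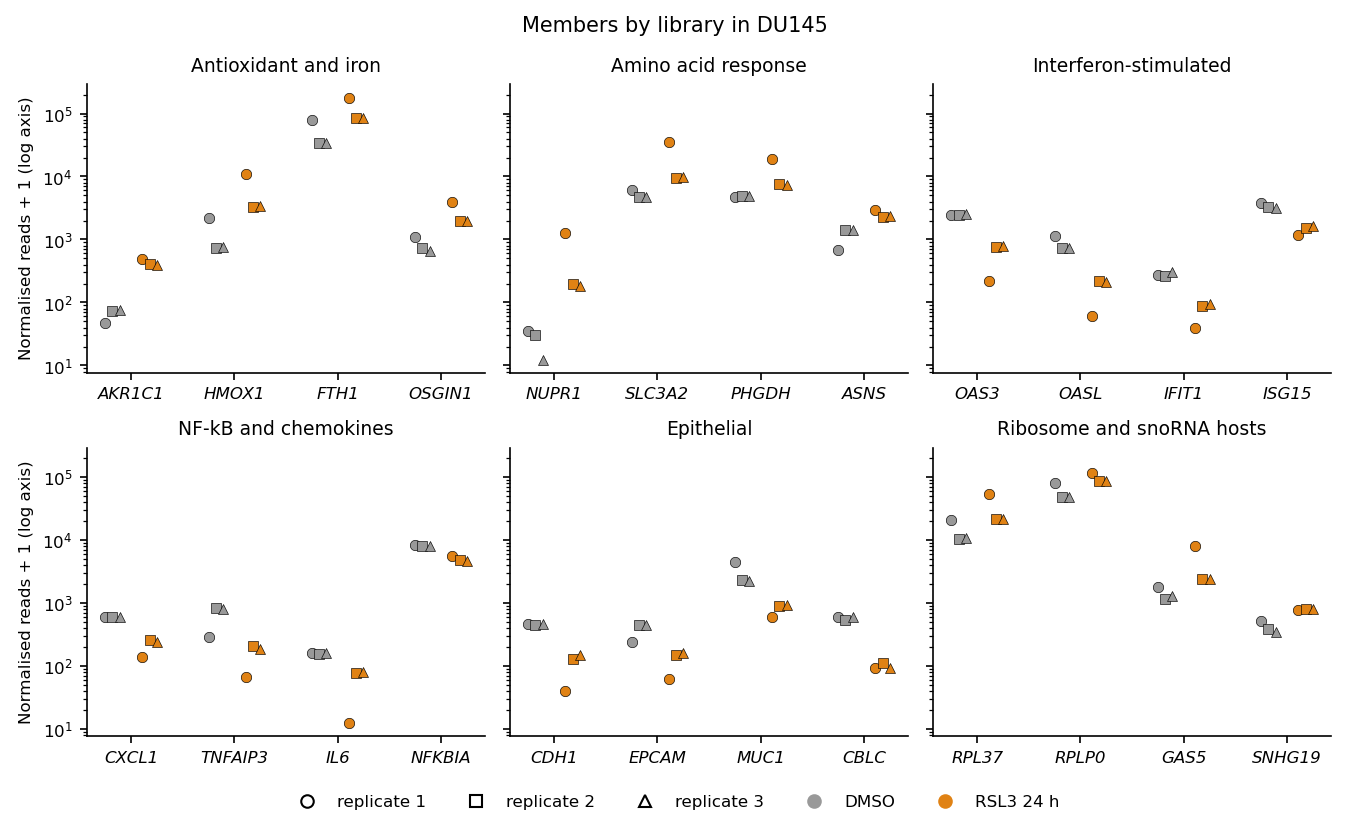
Normalised reads plus 1 (log axis) of 24 genes in 6 groups, 1 point per library, grey for DMSO and orange for RSL3 with circle, square and triangle for replicates 1, 2 and 3. HMOX1 shows replicate 1 apart in both groups, with a fold of 4.97 in replicate 1 and 4.45 in replicates 2 and 3.

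NRF2 targets and most listed iron-handling genes were higher in RSL3. Of 25 iron genes 7 were listed, with 6 higher, 1 lower and 5 passing. Of 32 aldo-keto and aldehyde reductases 6 were listed, all higher and passing, with 3 passing under totals, TMM and relative log expression. A list's share in the table is set here and below against 8.01% of all RefSeq protein-coding genes, expressed or not. Levels of unlisted genes are not known, so these shares do not separate response from expression. Lists share members, so their counts are not separate results. FTH1, FTL, HMOX1, BLVRB and SLC48A1 of the iron list and AKR1C1, AKR1C2 and AKR1B10 of the reductases are also NRF2 targets. Of 37 NRF2 targets 18 were in the table (48.6%, against 8.01% of all protein-coding genes), 18 were higher, 0 were lower and 17 passed, with a median log2 ratio of 1.24 where the median of all listed genes was 0.50. All 18 stayed higher under totals, TMM, relative log expression and the trend removed, with 12, 12, 12 and 14 passing. AKR1C1 (chromosome 10, 4963415 to 4983283, plus strand), an aldo-keto reductase of steroid and lipid aldehydes, read 46.2, 71.0 and 74.2 in DMSO and 492, 409 and 393 in RSL3. It rose 6.76-fold (log2 fold change 2.76, SE 0.26, adjusted p = 0.0028). Every RSL3 library lay above every DMSO library, and the neighbouring relative AKR1C2 rose 4.01-fold (23.1, 21.4 and 27.1 in DMSO and 105.7, 94.7 and 86.3 in RSL3), though near-identical copies can share reads. HMOX1, which frees iron from haem, read 2185, 742 and 763 in DMSO and 10854, 3239.9 and 3458 in RSL3, a rise of 4.76-fold. Replicate 1 lay above the other libraries of its group in both, every RSL3 library lay above every DMSO library, and the fold was 4.97 in replicate 1 and 4.45 in replicates 2 and 3. OSGIN1, an oxidative stress response gene, rose 3.15-fold (1109, 719 and 650.2 in DMSO and 3901, 1953 and 1949 in RSL3). Of 40 glutathione and thioredoxin enzymes 5 were listed, with 3 higher and 2 lower, all passing, and with the trend removed 2 were higher, 3 were lower and 0 passed limma's test, also at an unadjusted p under 0.05. The glutathione transferases GSTM2 (57.1, 29.01 and 33.2 in DMSO and 14.5, 22.5 and 18.8 in RSL3) and GSTM3 (326, 361 and 369 in DMSO and 275, 219.5 and 189.6 in RSL3) fell 2.14-fold and 1.54-fold. EPHX1, an epoxide hydrolase, rose 2.72-fold, and the haem transporter SLC48A1 rose 2.24-fold (1574, 1145 and 1039 in DMSO and 4186, 2089 and 2134 in RSL3).

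Ferritin heavy chain and 3 other genes that hold back ferroptosis rose. FTH1, the ferritin heavy chain with ferroxidase activity, read 79998, 34277 and 34206 in DMSO and 178852, 86194 and 85939.8 in RSL3 and rose 2.36-fold (adjusted p = 0.0407). FTL, the light chain, read 63038, 30168 and 29894 in DMSO and 133677, 56511 and 56208 in RSL3, and its 2.00-fold difference had an adjusted p of 0.0655, and 0.00223 in the fit with a replicate block. Ferritin reads may include those of processed pseudogenes. AIFM2, which encodes the ubiquinone reductase FSP1 that acts beside GPX4, rose 1.51-fold (2477, 1957 and 1908 in DMSO and 3841, 2865 and 2841 in RSL3), and NFS1, the cysteine desulfurase of iron-sulfur cluster assembly, 1.41-fold. Of 24 suppressors of ferroptosis 5 were in the table, 5 higher, with 4 passing on the deposited scale and 0 in limma with totals, where 2 had an unadjusted p under 0.05. FTH1, FTL and NFS1 are also on the iron list, and SLC3A2 is also an ATF4 target. GPX4 itself, SCD and TCF3 were not in the table. On the list of genes that promote ferroptosis, LPCAT3, which loads polyunsaturated chains into phospholipids, fell 1.47-fold (1392, 1011 and 1002 in DMSO and 673, 844 and 803 in RSL3). ACO1, the cytosolic aconitase and iron regulatory protein, was the lower member of the iron list, with 1195, 2015 and 2010.0 in DMSO and 492, 1187 and 1237 in RSL3 and an adjusted p of 0.0547 (0.00369 with the block).

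All members of the amino acid response in the table were higher, with a much larger ratio in replicate 1. Of 36 ATF4 targets 16 were in the table, 16 were higher and 10 passed, where 81.7% of all tested genes did. With the replicate block 16 passed, where 1708 of all 1720 tested genes did. Under totals 2 passed, under relative log expression 3 and under TMM or with the trend removed 6, and under totals 2 turned lower. The median log2 ratio was 1.82 in replicate 1 and 0.61 in replicates 2 and 3. SLC3A2, the heavy chain shared by the cystine and large neutral amino acid transporters, read 6086, 4675 and 4789.9 in DMSO and 35013, 9582 and 9647 in RSL3. It rose 3.49-fold over all libraries (log2 fold change 1.52, SE 0.48, adjusted p = 0.037), 5.75-fold in replicate 1 and 2.03-fold in replicates 2 and 3. Its partner SLC7A5 rose 2.29-fold (12206, 10566 and 10779 in DMSO and 41999.5, 17368 and 17619.5 in RSL3). PHGDH, the first enzyme of serine synthesis, read 4687, 4832 and 4819 in DMSO and 19246, 7471 and 7407 in RSL3, and the DMSO libraries were level while RSL3 replicate 1 lay far above the other RSL3 libraries. ASNS, asparagine synthetase, rose 2.15-fold (677, 1401 and 1414 in DMSO and 2929, 2261 and 2321 in RSL3), with DMSO replicate 1 the lowest library and RSL3 replicate 1 the highest. NUPR1, a stress-induced nuclear protein, had the largest ratio of the genes averaging 50 reads or more, at 22.0-fold (34.1, 29.01 and 11.3 in DMSO and 1251, 199 and 185 in RSL3). PYCR1, of proline synthesis, rose 2.10-fold. TRIB3, a pseudokinase that restrains ATF4, read 2105, 2013 and 1982 in DMSO and 8718, 2789 and 2714 in RSL3, with an adjusted p of 0.0558 and 0.031 with the block.

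Enzymes that charge tRNA went with them: 5 of 20 cytosolic aminoacyl-tRNA synthetases were in the table, 5 higher and 3 passing. Of all tested genes 81.7% passed. WARS1 turned lower under totals. Under totals, TMM or relative log expression 0 passed limma's test, and 1, 1 and 0 had an unadjusted p under 0.05. YARS1 rose 1.58-fold (4573, 3705 and 3514 in DMSO and 8208, 5299.8 and 5166 in RSL3) and SARS1 1.41-fold (2571, 2487 and 2514 in DMSO and 4093, 3245 and 3305 in RSL3). Of 19 genes of the unfolded protein response of the endoplasmic reticulum, 32 of G2 and mitosis and 10 metallothioneins, 0 were in the table. PCK2, the mitochondrial enzyme that makes phosphoenolpyruvate, was 3.93-fold higher in replicate 1 and 1.08-fold in replicates 2 and 3 (819, 1192 and 1126 in DMSO and 3217, 1306 and 1191 in RSL3), with an adjusted p of 0.095 over all libraries.

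Most interferon-stimulated genes of the table fell. Of 57 on the list 23 were listed (40.4%), with 1 higher and 22 lower, with 18 of the lower passing and a median log2 ratio of -1.68. The number lower was also 22 under totals, TMM, relative log expression and with the trend removed, where 16, 17, 17 and 14 of the 23 passed. OAS3, a sensor of double-stranded RNA (chromosome 12, 112938463 to 112973251, plus strand), read 2471, 2404 and 2538 in DMSO and 219, 753 and 786 in RSL3. It fell 4.22-fold (log2 fold change -2.29, SE 0.46, adjusted p = 0.0172), with level DMSO libraries and RSL3 replicate 1 far below the others. OASL read 1139.8, 737 and 744 in DMSO and 60.8, 216 and 211 in RSL3, and IFIT1, which binds foreign RNA caps, read 269, 263 and 298 in DMSO and 37.6, 85.4 and 92.0 in RSL3. They fell 5.37-fold and 3.86-fold. ISG15, a ubiquitin-like modifier, fell 2.34-fold from 3736, 3239.7 and 3141 to 1170.0, 1523 and 1635. The membrane protein IFITM3, which blocks entry of viruses, fell 3.33-fold (1185, 719 and 743 in DMSO and 171, 311 and 312 in RSL3), while its neighbour IFITM2 rose 1.48-fold (558, 507 and 518 in DMSO and 634, 821 and 881 in RSL3) and was the 1 member on the higher side. MX1 fell 3.21-fold, and IRF9, the DNA-binding part of the factor ISGF3, fell 2.23-fold (465, 433 and 466 in DMSO and 168, 215 and 228 in RSL3). The median log2 ratio was -2.56 in replicate 1 and -1.49 in replicates 2 and 3.

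Antigen presentation fell beside them, 8 of 25 genes being listed and 8 lower and 6 of 7 tested passing, a count that was 6, 6, 6 and 5 under totals, TMM, relative log expression and the trend removed. CD74, the invariant chain of MHC class II, read 467, 438 and 405 in DMSO and 272, 128 and 111 in RSL3 and fell 2.57-fold. HLA-DMB, which loads class II peptides, fell 1.81-fold (115, 84.8 and 100.4 in DMSO and 50.7, 58.2 and 57.2 in RSL3). Of 50 proteasome subunits 7 were listed, with 3 higher and 4 lower. The immunoproteasome subunits PSMB8 (1399, 1320.2 and 1341 in DMSO and 685, 846 and 836 in RSL3) and PSMB9 (736, 705 and 801 in DMSO and 317, 430.5 and 475 in RSL3) fell 1.72-fold and 1.83-fold, and the activator subunits PSME1 and PSME2 fell 1.48-fold and 1.44-fold. Of the constitutive subunits PSMD4 rose 1.59-fold (9622, 6393 and 6513 in DMSO and 15346, 10264 and 10112 in RSL3) and PSMD9 1.46-fold, while PSMC4 read 5937, 4398 and 4576 in DMSO and 8432, 6293 and 6376 in RSL3, with an adjusted p of 0.052 and 0.00321 with the block.

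Targets of NF-kB and cytokine genes fell without exception in the table: 15 of 43 were in it, 15 lower and 15 passing, with 11 passing under totals, 15 under TMM and relative log expression and 10 with the trend removed. CXCL1 read 588, 589 and 603 in DMSO and 139, 254 and 242 in RSL3 and fell 2.80-fold (log2 fold change -1.53, SE 0.26, adjusted p = 0.0142). CXCL2 fell 3.09-fold (902, 802 and 744 in DMSO and 158, 319.9 and 315 in RSL3), and CXCL8, which draws neutrophils, fell 2.53-fold (459, 919 and 941 in DMSO and 268, 323 and 328 in RSL3). IL6 read 157, 155 and 158 in DMSO and 11.6, 75.04 and 79.8 in RSL3. The 3 DMSO libraries were level for it, and the fall was 13.6-fold in replicate 1 and 2.02-fold in replicates 2 and 3. The feedback inhibitors fell too: TNFAIP3, the deubiquitinase A20, from 291, 827 and 804 to 66.6, 203 and 184 (4.24-fold), and NFKBIA, which holds NF-kB in the cytoplasm, from 8292, 8004 and 8112 to 5454, 4771 and 4602 (1.65-fold). ICAM1, a leukocyte adhesion molecule, fell 1.87-fold (8881, 6908 and 7095 in DMSO and 5358, 3521 and 3344 in RSL3). LTB, the lymphotoxin subunit, fell 3.02-fold, from 321, 759 and 773 to 261, 195 and 159, with its low DMSO value in replicate 1.

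Among 41 apoptosis regulators 8 were listed, with 3 higher and 5 lower, with 1 and 4 passing. The lower genes BCL2A1 and BIRC3 are also on the NF-kB list. BCL2A1, an inhibitor of apoptosis of the BCL2 family, read 80.2, 95.4 and 100.4 in DMSO and 5.79, 16.9 and 15.9 in RSL3 and fell 7.15-fold (log2 fold change -2.86, SE 0.43, adjusted p = 0.0125). BIRC3, a ubiquitin ligase that protects cells from TNF, fell 7.25-fold (22.0, 117 and 111 in DMSO and 7.24, 9.38 and 17.8 in RSL3), with DMSO replicate 1 well under the other DMSO libraries. BBC3, the killer protein PUMA, rose 1.75-fold (126, 81.7 and 92.5 in DMSO and 230.2, 131 and 163 in RSL3), but turned lower with the trend on GC content and length removed. BAX read 1776, 1251 and 1198 in DMSO and 4141, 1761 and 1711 in RSL3, with an adjusted p of 0.0763 and 0.00895 with the block.

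Epithelial junction and surface genes fell. Of 47 on the list 25 were listed (53.2%), with 2 higher and 23 lower, with 21 of the lower passing, a median log2 ratio of -1.38 and 2 higher and 23 lower members under totals, TMM and relative log expression and 1 and 24 with the trend removed. CDH1, which encodes E-cadherin (chromosome 16, 68737292 to 68835537, plus strand), read 459, 443 and 464 in DMSO and 39.1, 129 and 146 in RSL3. DMSO libraries lay within a few percent of each other, and RSL3 replicate 1 lay below the other RSL3 libraries. The fall was 4.34-fold (log2 fold change -2.32, SE 0.47, adjusted p = 0.0172), 11.8-fold in replicate 1 and 3.29-fold in replicates 2 and 3. CBLC, an epithelial ubiquitin ligase, fell 5.86-fold with little spread (595, 535 and 596 in DMSO and 89.8, 112 and 92.9 in RSL3). EPCAM fell 3.01-fold (242, 437 and 443 in DMSO and 60.8, 150.1 and 161 in RSL3), with both replicate 1 libraries low. MUC1, the membrane mucin, read 4394, 2268 and 2226 in DMSO and 602, 893 and 921 in RSL3. It fell 3.68-fold, and DMSO replicate 1 was the highest library. ELF3, an epithelial transcription factor, fell 2.17-fold, and JUP, plakoglobin, 1.55-fold. PKP1, a desmosomal plakophilin, rose 2.47-fold (109.9, 139 and 127 in DMSO and 419.9, 227 and 282 in RSL3).

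Of 149 keratins and keratin-associated genes 5 were listed (3.36%, under the 8.01% of all coding genes), with 4 higher and 1 lower under each scaling and with the trend removed. KRT81, a hair keratin, read 166, 286 and 246 in DMSO and 1176, 995 and 968 in RSL3 and rose 4.49-fold (log2 fold change 2.19, SE 0.24, adjusted p = 0.00762), but its reads can be shared with KRT83 and KRT86. KRT4, of mucosal epithelium, fell 2.22-fold (143, 105 and 111 in DMSO and 24.6, 67.5 and 69.5 in RSL3). Of 18 mesenchymal genes 2 were in the table, FN1, fibronectin, which fell 2.89-fold (109.9, 179 and 204 in DMSO and 20.3, 68.5 and 81.7 in RSL3), and TAGLN, a smooth muscle actin binder, which rose 1.78-fold.

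Of 53 matrix genes 17 were listed, with 6 higher and 11 lower, with 2 and 10 passing. COL5A2, a fibrillar collagen, fell 4.89-fold (71.4, 69.5 and 96.9 in DMSO and 10.1, 15.9 and 22.5 in RSL3), and NTN4, a basement membrane netrin, 6.52-fold (297, 769.6 and 765 in DMSO and 33.3, 125 and 123 in RSL3). COL4A2, a chain of basement membrane collagen, rose 3.25-fold, from 470.4, 902 and 898 to 3969, 1783 and 1621, with the lowest DMSO and the highest RSL3 value in replicate 1. TGFBI, a secreted protein induced by TGF-beta, rose 1.64-fold (3623, 2179 and 2127 in DMSO and 4216, 4419 and 4331 in RSL3).

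Most hypoxia and glycolysis genes of the table fell, 12 of 41 being listed, with 2 higher and 10 lower on the deposited scale, 1 and 11 under totals and 4 and 8 with the trend removed, and 8 of the lower passed. EGLN3, an oxygen sensor, read 190.1, 170.3 and 168 in DMSO and 60.8, 54.4 and 87.3 in RSL3 and fell 2.61-fold. VEGFA, the angiogenic factor, fell 1.82-fold (5031, 4025 and 3971 in DMSO and 3262, 1929.5 and 1956 in RSL3), and BNIP3, a mitophagy receptor, 2.12-fold (3454, 2083 and 2254 in DMSO and 895, 1406 and 1379 in RSL3). ADM, adrenomedullin, rose 3.18-fold (151, 68.7 and 47.1 in DMSO and 262, 305 and 281 in RSL3). Of 25 cholesterol synthesis genes 5 were listed, with 1 higher and 4 lower, all passing. LSS, which closes the sterol rings, fell 1.52-fold (6765, 6101 and 6091 in DMSO and 3847, 4289.6 and 4301 in RSL3), and INSIG1, which retains the sterol sensor, 1.58-fold. PMVK, which phosphorylates phosphomevalonate, rose 1.60-fold (2014, 1393 and 1386 in DMSO and 3210.1, 2158 and 2312 in RSL3). The groups did not overlap for LSS.

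Genes of the BMP and TGF-beta pathway moved in both directions. Of 34 genes 9 were listed, with 6 higher and 3 lower, as under each scaling, and 7 and 2 with the trend removed. ATOH8, a helix-loop-helix factor induced by BMP signalling in other cells, read 26.4, 35.1 and 40.1 in DMSO and 358, 429 and 470.2 in RSL3, and was 13.6-fold higher in replicate 1 and 11.9-fold in replicates 2 and 3. SMAD6, an inhibitory SMAD, rose 2.85-fold (256, 352 and 346 in DMSO and 973, 879 and 863 in RSL3), and SMAD7 2.12-fold (109, 97.0 and 102 in DMSO and 194, 222 and 236 in RSL3). ID3 rose 2.08-fold (3313, 2043 and 1961 in DMSO and 4059, 5591 and 5562 in RSL3), and NOG, the secreted BMP antagonist noggin, 2.34-fold (57.1, 58.0 and 36.7 in DMSO and 89.8, 139.8 and 126 in RSL3). The ligands went opposite ways at low levels. GDF15, a stress-induced ligand, rose 9.20-fold (4.40, 9.16 and 3.49 in DMSO and 126, 20.6 and 10.3 in RSL3), with RSL3 replicate 1 far above the rest, and BMP7 fell 6.83-fold (20.9, 11.4 and 9.60 in DMSO and 1.45, 0.940 and 3.75 in RSL3). LTBP2, a relative of the proteins that hold TGF-beta in the matrix, fell 1.47-fold (909, 864 and 821 in DMSO and 511, 647 and 605 in RSL3). BMPR2, a BMP receptor, read 34.1, 137 and 126 in DMSO and 18.8, 39.4 and 52.6 in RSL3, with an adjusted p of 0.0708 and 0.00627 with the block, and it was higher with the trend removed.

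Listed genes of cytosolic ribosomal proteins were higher by small ratios. Of 85 such genes 21 were in the table (24.7%, against 8.01% of all protein-coding genes), 21 higher. Of them 10 passed, where 81.7% of all tested genes did. With the replicate block 21 passed, where 1708 of all 1720 tested genes did. Under each of TMM, totals and relative log expression 2 passed. The 21 had a median log2 ratio of 0.65, where that of all listed genes was 0.50 and that of higher genes 0.81. Under totals 3 turned lower, and with the trend removed 2 did. RPL37 read 20536, 10294 and 10559.9 in DMSO and 54269.5, 21096 and 21361 in RSL3, a 2.34-fold rise with both replicate 1 libraries far above the rest. RPLP0, a stalk protein, rose 1.64-fold (79110.1, 48416 and 47970.3 in DMSO and 113733, 87228 and 86331 in RSL3). RPL8, the most abundant listed gene, read 109404, 68995 and 69550.1 in DMSO and 171506, 116009 and 116054 in RSL3, with an adjusted p of 0.0556 and 0.00264 with the block, and it was lower with the trend removed. ACTG1, a cytoskeletal actin and the next in level, read 109748, 102319 and 102449.9 in DMSO and 75877, 84610.1 and 85171 in RSL3, with an adjusted p of 0.153 and 0.00837 with the block. Pseudogenes of ribosomal proteins can share their reads. Of 77 mitochondrial ribosomal protein genes 13 were listed, with 12 higher and 1 lower, and with the trend removed 9 and 4. MRPS16 rose 1.67-fold (4423, 3414 and 3502 in DMSO and 7218, 5841 and 5833 in RSL3).

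Listed host genes of small nucleolar RNAs, whose own transcripts are decayed when translation runs, were higher. Of 33 such genes 12 were in the table, 12 higher, and 10 passed, where 81.7% of all tested genes did. Under TMM, totals and relative log expression 4, 2 and 4 passed with the same direction. GAS5 read 1794, 1159.8 and 1271 in DMSO and 8038, 2352 and 2355 in RSL3 and rose 3.02-fold, 4.48-fold in replicate 1 and 1.94-fold in replicates 2 and 3. SNHG19 rose 1.92-fold (508, 380.2 and 346 in DMSO and 769, 810.4 and 796 in RSL3) and ZFAS1 1.98-fold (2938, 1697 and 1807 in DMSO and 6484, 3177 and 3120.5 in RSL3). DANCR rose 1.87-fold, from 839, 484 and 463 to 1446, 955 and 936.

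Some genes of ion channels were among the largest increases, though the family was listed about as often as other genes. Of 197 subunits 18 were listed (9.14%, against 8.01% of all protein-coding genes). Of these 11 were higher and 7 lower, where 52.9% of all listed genes were higher, and 11 and 5 passed. Of the 16 tested 11 were higher and 5 lower under each scaling, and 12 higher and 4 lower with the trend removed. KCNF1, a silent potassium channel subunit, read 73.6, 72.5 and 65.5 in DMSO and 497, 356 and 377 in RSL3 and rose 5.81-fold (log2 fold change 2.51, SE 0.22, adjusted p = 0.00259). CACNG4, an auxiliary calcium channel and AMPA receptor subunit, rose 6.20-fold (50.6, 40.5 and 54.1 in DMSO and 194, 324 and 382 in RSL3), and HCN2, a pacemaker channel, 3.21-fold (94.5, 68.7 and 57.6 in DMSO and 211, 241 and 256 in RSL3). The ATP-gated P2RX6 read 20.9, 10.7 and 13.1 in DMSO and 184, 71.3 and 84.5 in RSL3, a 7.60-fold rise. SCNN1A, the alpha subunit of the epithelial sodium channel, fell 5.94-fold (721, 322 and 320.3 in DMSO and 89.8, 72.2 and 67.6 in RSL3). For these genes the groups did not overlap, and every DMSO value of KCNF1 lay under every RSL3 value by a factor above 4.

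Solute carriers moved in both directions. Of 398 genes 26 were listed (6.53%, under the 8.01% of all protein-coding genes), with 17 higher and 9 lower, and 14 and 6 passed. Of the 24 tested 16 were higher and 8 lower under each other scaling. Besides SLC3A2 and SLC7A5, the amino acid carriers SLC1A4 (284, 284 and 271 in DMSO and 992, 437 and 449.5 in RSL3) and SLC6A9, for glycine (601, 495 and 480.0 in DMSO and 2169, 795 and 778 in RSL3), rose 2.24-fold and 2.37-fold. SLC43A1, another carrier of neutral amino acids, rose 2.72-fold. The mitochondrial iron importer SLC25A28 rose 1.74-fold (682, 488 and 478 in DMSO and 1290.1, 775 and 804 in RSL3). SLC52A3, a riboflavin transporter, fell 3.42-fold (96.7, 93.9 and 83.8 in DMSO and 30.4, 29.1 and 20.6 in RSL3), and SLC2A10, of the glucose transporter family, 1.80-fold.

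**Figure D2:**
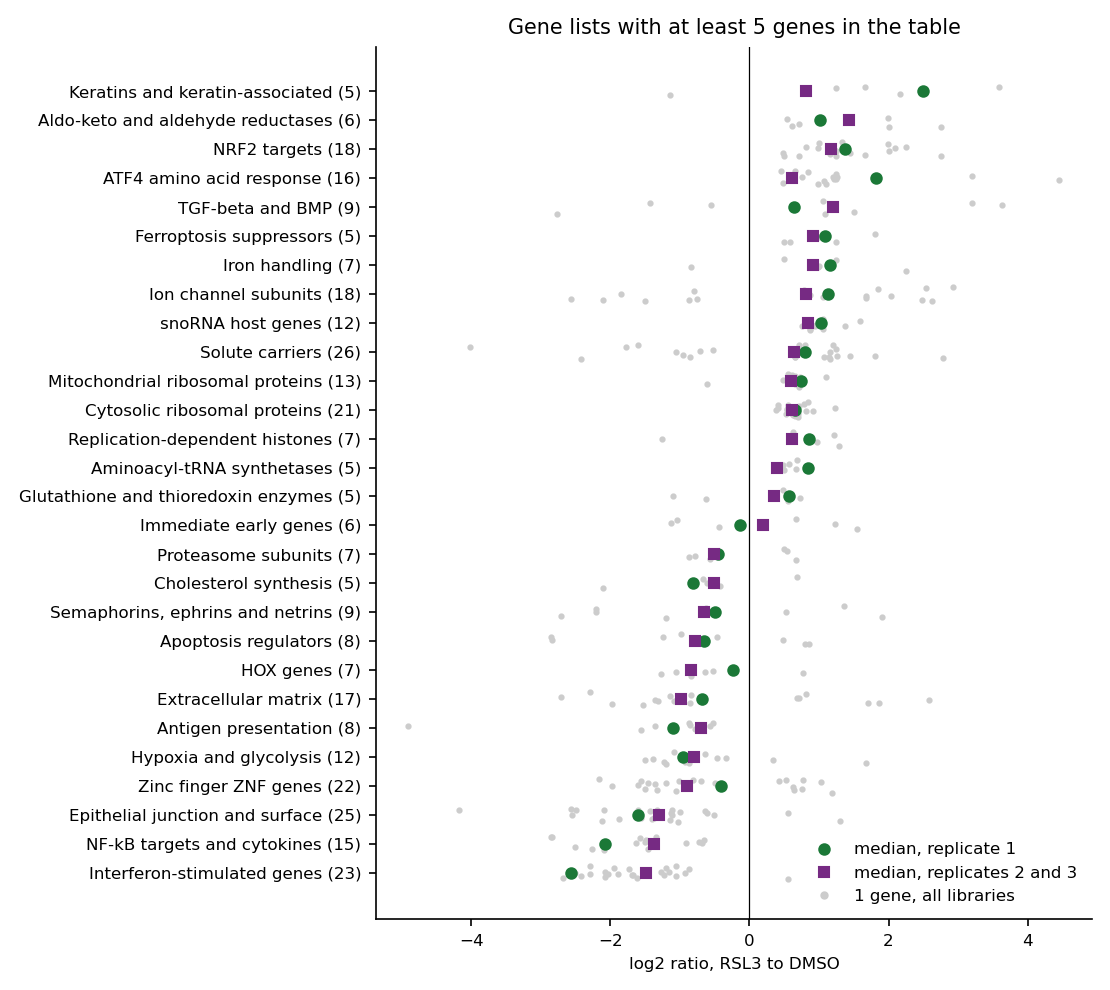
Log2 ratio of RSL3 to DMSO for gene lists with at least 5 genes in the table, the number of genes in brackets, with a grey point per gene (ratio of group means) and the list's median in replicate 1 (green circle) and in replicates 2 and 3 (purple square). The medians of interferon-stimulated genes are -2.56 and -1.49 and those of the amino acid response 1.82 and 0.61.

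Replicate 1 and replicates 2 and 3 were compared by an interaction term, whose error comes only from the spread between replicates 2 and 3. Direction was shared by 1802 of the 1810 genes, and 1187 (65.6%) had the larger ratio in replicate 1. By limma's interaction test 725 of 1720 genes passed (42.2%) and 854 had an unadjusted p under 0.05. Among the 725, 355 higher genes had a larger ratio in replicate 1 and 86 a smaller one, and 198 lower genes had a larger fall there and 86 a smaller one. With TMM scaling these counts were 207, 150, 241 and 42 of 640, so the excess among higher genes depends on the scaling. In DMSO alone replicate 1 differed from the others in 1051 genes by the same fit.

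In the amino acid response 15 of 16 passed the interaction test and all 15 were larger in replicate 1. CD22, a B cell lectin gene, was 13.8-fold higher in replicate 1 and 2.45-fold in replicates 2 and 3 (29.7, 35.1 and 50.6 in DMSO and 408, 105 and 105 in RSL3; interaction adjusted p = 2.94e-05). CYP1A1, the dioxin-inducible cytochrome, had log2 ratios of 2.31 and 0.58, and VGF, a neuropeptide precursor, was 6.30-fold higher and 1.97-fold. PDZK1IP1, a membrane protein of epithelia, was 20.3-fold lower in replicate 1 and 1.53-fold in replicates 2 and 3 (675, 199 and 218 in DMSO and 33.3, 132 and 139.8 in RSL3), and CAVIN2, a caveolar coat protein, 8.44-fold and 2.10-fold. Under the block PDZK1IP1 had an adjusted p of 0.0606, against 0.042 without it.

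Direction was opposite in 8 genes, 5 of them averaging 50 reads or more and the others BRDT, EFNB2 and ZNF829. TAGLN read 1396, 746 and 712 in DMSO and 1247, 1881 and 1946 in RSL3, a log2 ratio of -0.16 in replicate 1 and 1.39 in replicates 2 and 3. IGFBP3, which binds insulin-like growth factors, read 1451, 734 and 738 in DMSO and 1393, 1742 and 1683 in RSL3, and GJA3, a connexin, 81.3, 52.7 and 57.6 in DMSO and 68.0, 154 and 138 in RSL3. THBS1, a matrix glycoprotein that activates TGF-beta, read 639, 752 and 765 in DMSO and 621, 1545 and 1609.5 in RSL3. In all 4 of these the RSL3 value of replicate 1 was under its DMSO value. HOXB9 read 544, 1018 and 1009 in DMSO and 569, 415 and 449 in RSL3 and was the lower gene of the 5. It belongs to the HOX genes, which fix position along the body axis, of which 7 of 39 were listed, with 1 higher and 6 lower under each scaling and with the trend removed, with the neighbours HOXB5, HOXB6, HOXB7, HOXB8 and HOXB9 all lower. HOXB7 fell 1.43-fold (645, 532 and 579 in DMSO and 466, 370.5 and 389.5 in RSL3).

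**Figure D3:**
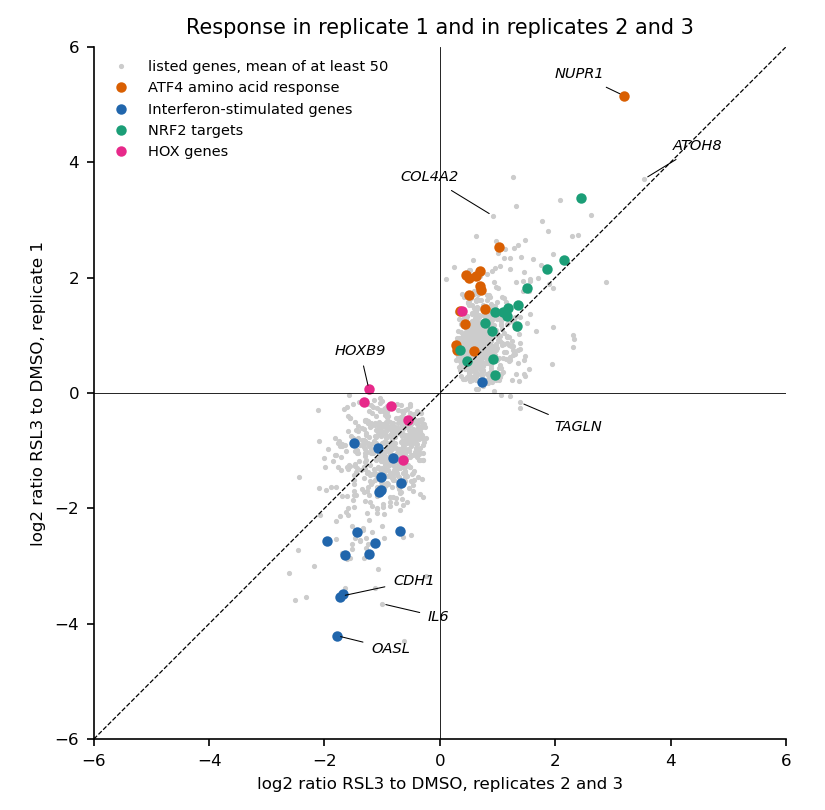
Log2 ratio of RSL3 to DMSO in replicate 1 (vertical) against replicates 2 and 3 (horizontal) for genes averaging 50 normalised reads or more, with 4 lists in colour and a dashed line of equal ratios. Of 1810 genes 1802 keep their sign, amino acid response genes lie above the line and TAGLN and HOXB9 lie across an axis.

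The listed genes were not spread evenly over the genome. Chromosome 14 had 80 of its 90 listed genes lower (88.9%, where all listed genes had 47.1%), and 13.7% of its coding genes were in the table, against 8.01% over all chromosomes. Before 100 Mb (GRCh38) 77 of 81 were lower, in replicate 1 and in replicates 2 and 3 alike, with a run of 35 neighbouring listed genes lower and a median fold of 1.85 among the lower ones. Of the 80 tested, 76 were lower on the deposited scale and under TMM and relative log expression, 78 under totals, and 65 of 77 with the trend removed. At 45 to 55% GC 36 of its 38 genes were lower (94.7%), against 54.4% of genes at this GC content outside this stretch and that of chromosome 10 below. From 100 Mb to the end of the chromosome 6 of 9 were higher. The stretch was chosen after the values were seen, and gene copy number was not measured.

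Lower genes of this stretch included transcription factors, receptors and enzymes. FOXA1, a pioneer factor of prostate cells, read 756, 897 and 837 in DMSO and 417, 531 and 550.0 in RSL3 and fell 1.66-fold. TEP1, a vault component at the near end, fell 1.65-fold (492, 534 and 546 in DMSO and 262, 351 and 342 in RSL3), LRP10, a lipoprotein receptor relative, 1.67-fold (5716, 5256 and 5117 in DMSO and 4086, 2765 and 2788 in RSL3), and RDH11, a retinol dehydrogenase, 1.99-fold (962, 1370.5 and 1422 in DMSO and 456, 658 and 772 in RSL3). These 4 were chosen after their values were seen. The stretch also holds NFKBIA, IRF9, PSME1, PSME2, EGLN3, IFI27 and MMP14, which are counted in the lists above. PCK2, TMEM253, PLEK2 and GSTZ1 were its higher genes, and GSTZ1 and PLEK2 were lower under totals. Without genes of this and the next stretch the interferon list had 17 lower members and the NF-kB list 14, and the median of the proteasome list turned from lower to higher.

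Chromosome 10 had the opposite bias over part of its length, as did stretches of other chromosomes. This stretch of chromosome 10 was also chosen after the values were seen. Between 70052846 and 103452403 (GRCh38) 52 of 59 listed genes were higher (88.1%, against 52.9% of all), with a median fold of 1.66, and from there to the end of the chromosome 10 of 14 were lower. Of the 57 tested 51 were higher on the deposited scale, under TMM and under relative log expression, 49 under totals and 47 of 56 with the trend removed. PPIF, which encodes cyclophilin D of the mitochondrial permeability pore, read 3091, 2594 and 2618 in DMSO and 4819, 4332 and 4443 in RSL3 and rose 1.64-fold. NPM3, a histone chaperone, rose 2.02-fold (2786, 1848 and 1814 in DMSO and 5873, 3603 and 3579.5 in RSL3), PDLIM1 1.61-fold (2988, 2149 and 2042 in DMSO and 4677, 3458 and 3443 in RSL3) and GHITM 1.48-fold (4684, 3992 and 4028 in DMSO and 6439, 6298 and 6067 in RSL3), the 4 chosen after their values were seen. The 7 lower genes were IFIT1, IFIT2 and IFIT3 with SPOCK2, LINC00865, CYP26A1 and OLMALINC. On chromosome 21, 23 of 29 were lower, MX1, MX2, LSS and COL6A1 among them, and on chromosomes 19, 16 and 22, with median GC contents of 60.3%, 58.9% and 58.0%, 77.7%, 73.7% and 71.4% were higher. Shorter stretches elsewhere were as one-sided. Higher genes were 30 of 35 on chromosome 9 from 120 Mb (85.7%, median GC content 62.4%). They were 28 of 31 on chromosome 8 from 140 to 150 Mb and 30 of 31 on chromosome 19 from 10 to 20 Mb. On chromosome 4 from 70 to 80 Mb 14 of 14 were lower. Among them were CXCL1, CXCL2, CXCL5 and CXCL6, which are counted in the NF-kB list above. These shorter stretches were picked after their values were seen. Over all chromosomes 72.1% of 1163 neighbouring pairs within 1 Mb shared a direction, and 70.4% of 1062 outside the chromosome 14 and 10 stretches.

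**Figure D4:**
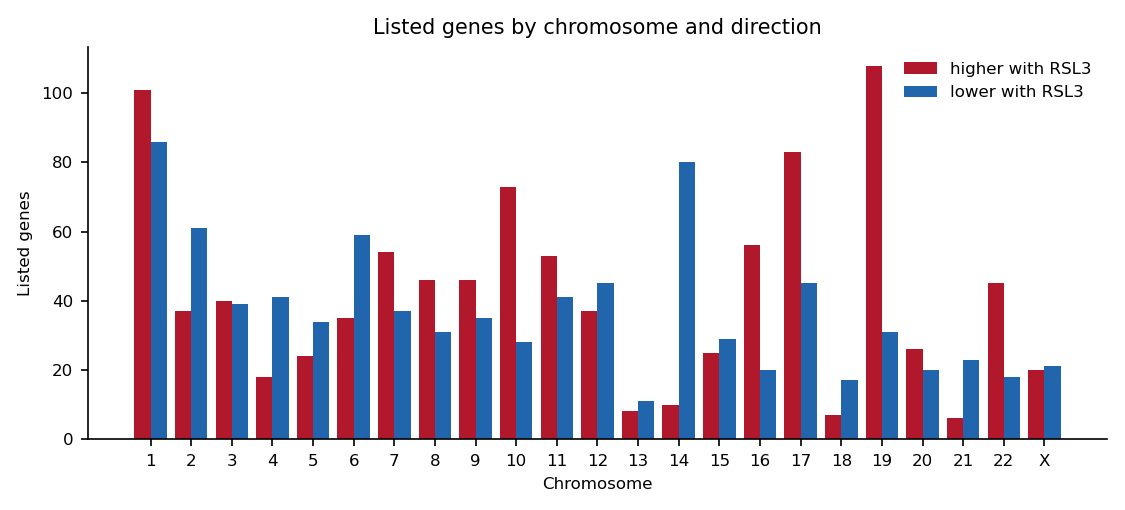
Number of listed genes higher (red) and lower (blue) with RSL3 on each chromosome, as bars from 0. Chromosome 14 has 10 higher and 80 lower genes, and chromosome 19 has 108 and 31.

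**Figure D5:**
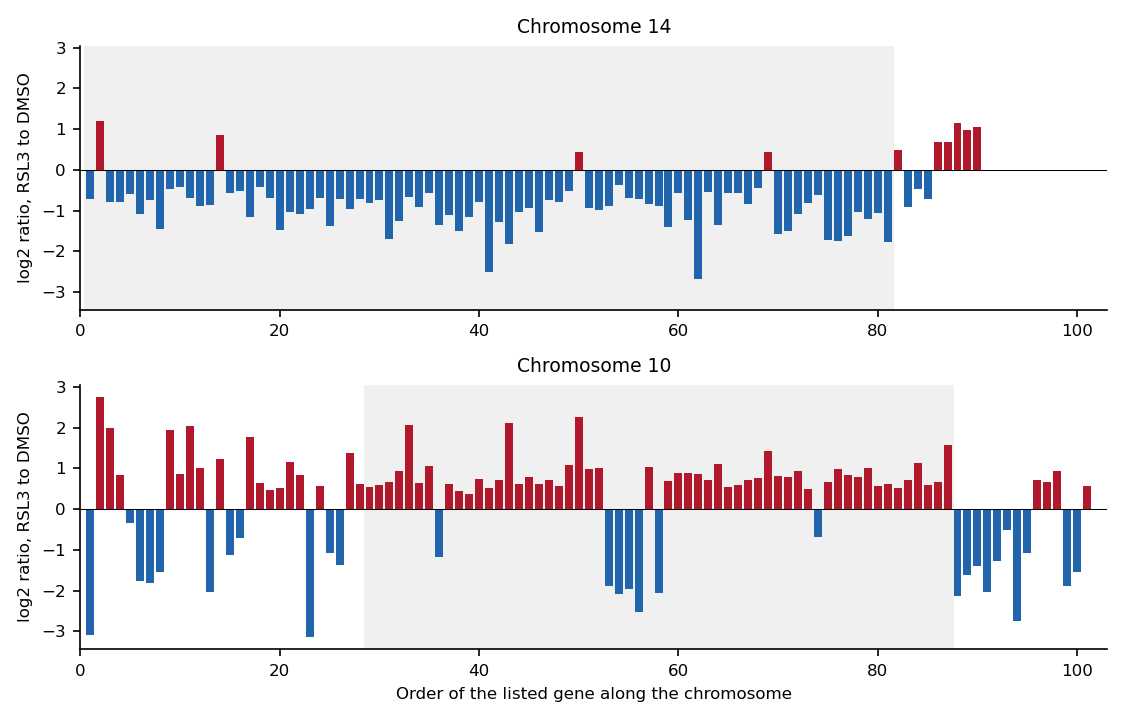
Log2 ratio of RSL3 to DMSO of each listed gene in its order along chromosomes 14 (top) and 10 (bottom), red for higher and blue for lower, with the stretches described in grey. In the grey stretches 77 of 81 genes are lower on chromosome 14 and 52 of 59 are higher on chromosome 10.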

How the data were processed

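RNA of DU145 cells was sequenced in 3 DMSO and 3 RSL3 libraries. The authors deposited a size-factor normalised signal per gene, listing only genes that they called changed, and the submitters' processing notes name fastp, HISAT2, StringTie and DESeq2 with hg38. Strandedness and annotation are not given in the sources used here. Every value (100%) came back as a whole read within 0.001 after multiplying by a size factor recovered from its steps, and these reads were used for edgeR and DESeq2. Library depth is unknown, because only listed genes are held.

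The main test was limma on log2(value + 1) over the 1720 genes kept by filterByExpr (minimum count 10, minimum total 15; 90 left out), with Benjamini-Hochberg adjustment and a threshold of 0.05. The interaction test compared the RSL3 effect in replicate 1 with that in replicates 2 and 3. Deviations of same-numbered libraries from their group means correlated by 0.62, 0.48 and 0.46, and a fit with a replicate block was run. These correlations cannot show that replicates 2 and 3 are paired by number. Replicate 1 stood apart in both groups and shifts every group mean, and correlations between libraries of different numbers were not computed. Rows were matched to genes by position and strand, with an overlap of at least 0.5 of the joint span, and 15 had no name. The members and gene lists were chosen with earlier results of these data known. The rule for named genes took the 12 largest increases and decreases without overlap, the 12 most abundant genes, up to 5 members of each list by ratio and 2 by level, the 10 largest interactions in each direction and up to 10 genes of opposite direction, all averaging 50 reads or more except by abundance, and ATOH8, GPX4, SCD and TCF3. Other named list members, and genes said to be so, were chosen after their values were seen. Promoters came from RefSeq (GRCh38.p14). The fits were run on simulated data in which most genes were unchanged and all replicates had equal spread. That setting differs from the libraries here, so it does not test the calls under their replicate structure. R 4.3.3, limma 3.58.1, edgeR 4.0.16 and DESeq2 1.42.0 were used. Alternatives covered scaling, pseudocount, filters, replicates left out, the block and a GC and length trend. Some genes that the rule names are not reported here.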

Additional observations from a re-analysis of the deposited data

Results flagged for a closer look

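The RSL3 effect differed between replicate 1 and replicates 2 and 3 in 725 of 1720 genes by limma's interaction test with Benjamini-Hochberg adjustment. The error of this test is the spread between replicates 2 and 3 only, which differed by 1.64 and 1.81 in chi-square per degree of freedom. With edgeR on whole reads the count was 669.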

How the results depend on the processing

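The count of listed genes passing the test, 1406, was between 6 and 1437 with 1 library left out, with 6 and 8 without DMSO replicate 2 and 3, 253 and 301 without RSL3 replicate 2 and 3 and 961 without RSL3 replicate 1. It was 3 with replicates 2 and 3 averaged, 720 with the GC and length trend removed and 2 with every gene of the annotation counted as a test. With scalings over listed genes alone it was 617 with totals, 911 with TMM and 884 with relative log expression. With the replicate block it was 1708, and 2 with the block and every annotated gene counted as a test, an alternative added after seeing the data. The cause was not tested. Blocked adjusted p-values stand in the report only for genes whose call they change. Of 145 named genes tested under 17 alternatives, 6 turned sign: BBC3 (-0.136), BMPR2 (0.22) and RPL8 (-0.094) with the trend removed, and GSTZ1 (-0.029), PLEK2 (-0.024) and WARS1 (-0.01) with totals, as log2 fold changes. Among the 28 lists with at least 5 listed genes, medians that turned sign were those of glutathione and thioredoxin enzymes with the trend removed (-0.027), immediate early genes with replicate 1 only (-0.14), TMM (-0.17), totals (-0.36) and relative log expression (-0.20), zinc finger genes at a mean of at least 50 (0.47) and proteasome subunits without the chromosome 14 and 10 stretches (0.50), the last chosen after seeing the data, as were totals and relative log expression for lists. Lists with fewer listed genes were not followed in this way.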

Other observations

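Among semaphorins, ephrins and netrins, genes of cell guidance, 9 of 55 were listed, with 3 higher and 6 lower, with 3 and 5 passing. Of 71 replication-dependent histone genes 7 were listed (9.86%, against 8.01% of all protein-coding genes). Of these 6 were higher and 1 lower, all passing, and 4 and 3 with the trend on GC content and length removed. Immediate early genes, the first to respond to signals, had 6 of 41 listed, with 3 higher and 3 lower.

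In DMSO alone replicate 1 differed from replicates 2 and 3 in 1051 listed genes, 692 higher and 359 lower. RSL3 replicate 1 had 38 listed genes at 0 reads, against 3 to 10 in the other libraries.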
